A study of Mus musculus with 4 samples.

Results

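The aminoacyl-tRNA synthetase genes were taken from the gene names of the deposited count table, as every name made of 1 letter code followed by ars or ars2, plus Eprs, Farsa, Farsb and Tarsl2. This gave 38 of 17391 genes. Of these, 19 encode cytosolic enzymes or subunits, 17 encode mitochondrial enzymes, and 2, Gars and Kars, each encode an enzyme used in both compartments. The study profiled single cells by Drop-seq, in which barcoded beads capture polyadenylated RNA of cells in droplets, from primary cultures of Gli1+ kidney cells of male mice aged 12 weeks. Gli1 marks perivascular mesenchymal cells that are known as precursors of myofibroblasts. All cultures spent 2 h without serum. The control, labelled 0 h, was collected then without TGF-β, and the others were kept for 6, 12 or 24 h with TGF-β, a profibrotic cytokine, at 1 ng/ml. Each of these 4 conditions is 1 library, and no culture was kept without TGF-β for 6, 12 or 24 h, so hours with TGF-β and hours in culture without serum cannot be told apart. How many animals the cultures came from is not stated in the labels.

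Synthetases join amino acids to their tRNAs, which then carry them to the ribosome. Cytosolic protein synthesis and the small translation system inside mitochondria mostly use separate enzymes, all encoded in the nucleus, and the mitochondrial ones are imported. There is no separate mitochondrial glutaminyl enzyme: an amidotransferase converts glutamate already joined to the glutamine tRNA. Several cytosolic synthetases sit in a multi-synthetase complex held by scaffold proteins, and many cytosolic synthetase genes are known targets of ATF4, a transcription factor of the amino acid response.

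The content of the library labelled 0 h did not match Gli1+ mesenchymal cells. Markers of proximal tubule summed to 14987 CPM in it (counts scaled to a library total of 1000000) and to 1.41 to 2.57 CPM in the treated libraries, whereas 10 measured mesenchymal markers summed to 56.2 CPM, with 6 of them at 0, against 7078 to 13673 CPM. It was also shallow, with 192 barcodes and 106826 counts, of which Malat1 took 32.2%. The libraries at 6, 12 and 24 h held 658, 1120 and 1328 barcodes and 778793, 5687966 and 6166324 counts, and no barcode was shared between libraries. One count was worth 9.36, 1.28, 0.176 and 0.162 CPM in time order, and the limit that a count of 0 allows, taken as 3 counts, was 28.1, 3.85, 0.527 and 0.487 CPM. With 1 library per condition no test was made. Intervals in parentheses are exact 95% intervals that cover counting error only, not the spread between cultures or between barcodes of a library. The counts are not stated to be single molecules.

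Relative to 6 h, the later treated libraries had less cytosolic and more mitochondrial synthetase RNA per library total. At 6 h the 19 cytosolic genes had a summed level of 3136 CPM (3012 to 3263), compared with 2459 CPM (2419 to 2500) at 12 h, and with 2054 CPM (2018 to 2090) at 24 h. It was thus lower at each later time, by 1.28-fold (1.22 to 1.33) at 12 h against 6 h, by 1.20-fold (1.17 to 1.23) at 24 h against 12 h and by 1.53-fold (1.46 to 1.59) at 24 h against 6 h. The 17 mitochondrial genes summed at 6, 12 and 24 h to 240 CPM (207 to 277), 381 CPM (365 to 398) and 333 CPM (319 to 348). This sum was lowest at 6 h: it was 1.59-fold higher (1.37 to 1.85) at 12 h and 1.39-fold higher (1.19 to 1.62) at 24 h than at 6 h, and 1.14-fold lower (1.08 to 1.22) at 24 h than at 12 h. Gars and Kars, the glycyl and lysyl enzymes of both compartments, summed to 265, 379 and 267 CPM, with the highest value at 12 h. Their sum was 1.43-fold higher (1.24 to 1.66) at 12 h than at 6 h and nearly level between 24 h and 6 h, at 1.01-fold (0.872 to 1.17).

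Mitochondrial enzymes made up 7.11% (6.16 to 8.16) of the cytosolic plus mitochondrial synthetase counts at 6 h, 13.4% (12.9 to 14.0) at 12 h and 14.0% (13.4 to 14.5) at 24 h. The interval at 6 h lay below both others, and those at 12 h and 24 h overlapped. This share does not depend on how the libraries were scaled. In the library labelled 0 h the share was 40.7% (32.6 to 49.2), from 59 of 145 counts. That library had the lowest cytosolic sum, 805 CPM (644 to 994), and the highest mitochondrial sum, 552 CPM (420 to 712). Relative to it the cytosolic sum was 3.89-fold, 3.05-fold and 2.55-fold higher at 6, 12 and 24 h, and the mitochondrial sum 2.30-fold, 1.45-fold and 1.66-fold lower. These are differences between libraries that also differ in the cell type markers given above, and the part of those cells in them was not tested.

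**Figure D1:**
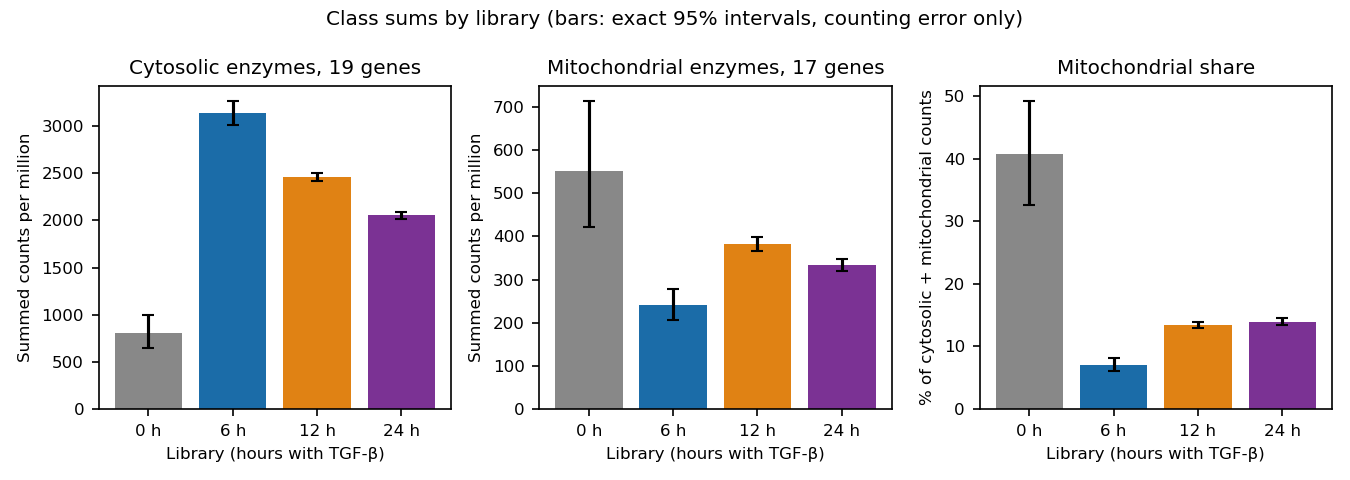
Summed CPM of the 19 cytosolic genes (left) and 17 mitochondrial genes (middle), and the mitochondrial percentage of both (right), in each library, with hours with TGF-β on the x axis. Bars are sums and lines are exact 95% intervals; the cytosolic sum is highest at 6 h, at 3136 CPM, and the mitochondrial share among treated libraries is lowest there, at 7.11%.

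Because ATF4 is known to bind C/EBP-ATF response elements, the promoters were searched for the core of that element, TGATGNAA, on both strands, from 250 bases before to 50 bases after the RefSeq start in GRCm38.p6. A window was given for 28 of the 38 genes. Among those with none were Cars, Hars, Hars2, Lars, Nars, Pars2, Rars, Vars and Wars. The core was found in a window of 5 of these 28 genes (17.9%) and of 1219 of all 27025 genes with a window in the reference (4.51%). The 5 were 4 of 12 cytosolic genes (Aars, Iars, Tars and Yars), 0 of 14 mitochondrial genes and 1 of 2 genes of both compartments (Gars). The match nearest the start of each of these 5 genes is shown, because none fell in a mitochondrial gene, with 10 bases on either side, 5′ to 3′ on the strand of the gene, with the match in capitals. A match read on the other strand appears as its reverse complement, which ends in CATCA.
Aars, chr8:111033841-111033868, plus strand: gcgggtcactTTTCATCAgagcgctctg
Iars, chr13:49682127-49682154, plus strand: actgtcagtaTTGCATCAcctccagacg
Tars, chr15:11399656-11399683, minus strand: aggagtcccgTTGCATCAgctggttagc
Yars, chr4:129189896-129189923, plus strand: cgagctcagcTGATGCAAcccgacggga
Gars, chr6:55037961-55037988, plus strand: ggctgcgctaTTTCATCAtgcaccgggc

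Single genes were compared where the mean of both libraries was at least 20 CPM, by the log2 ratio of CPM plus 1, and called apart at 1.5-fold or more. All 19 cytosolic genes reached that level in each comparison, and 5 of the 17 mitochondrial genes did (Cars2, Hars2, Iars2, Rars2 and Tars2). A gene under 20 CPM in 1 library can reach this mean through the other, so a call on such a gene depends partly on the floor. At 24 h against 6 h, 8 cytosolic genes were called lower and 0 higher, where 11.8% of the 6238 genes compared were lower and 17.4% higher. Their median log2 ratio was -0.32 and that of all genes compared was 0.04, and 15 of the 19 lay below 0. At 12 h against 6 h, 2 cytosolic genes were lower (Nars and Tarsl2) and 1 higher (Farsa), where 8.94% of all 6355 genes were lower and 22.5% higher, and their median was -0.12 against 0.18 for all genes. With equal weight for every barcode that median was 0.047, the opposite direction. At 24 h against 12 h, 1 was lower (Rars) and 0 higher, where 5.63% of all 6469 genes were lower and 3.03% higher, and their median was -0.25 against -0.13. Scaling by TMM moved the medians of all genes to 0.04 at 12 h against 6 h and to 0.02 at 24 h against 12 h. The genes higher and lower over the whole table went from 1427 and 568 to 998 and 797 in the first of these, and from 196 and 364 to 327 and 186 in the second. Under TMM the cytosolic genes called lower numbered 3, 0 and 8 at 12 h against 6 h, 24 h against 12 h and 24 h against 6 h. All comparisons with 6 h share that 1 library.

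Nars, the asparaginyl enzyme, differed most. It had 12 counts in the library labelled 0 h, then 746 CPM (687 to 809) at 6 h, and 320 CPM (305 to 335) and 306 CPM (292 to 320) at 12 and 24 h. The 6 h library stood apart from the other treated libraries, which were close to each other. Nars was 2.33-fold lower (2.12 to 2.56) at 12 h and 2.44-fold lower (2.22 to 2.68) at 24 h than at 6 h. Rars, the arginyl enzyme and a complex member, at chr11:35808381-35834506 on the minus strand in mm10, differed in steps instead. Its levels at 6, 12 and 24 h were 399 CPM (356 to 446), 291 CPM (277 to 306) and 182 CPM (171 to 193), after 2 counts at 0 h, and no intervals of the treated libraries overlapped. It was 1.37-fold lower (1.21 to 1.55) at 12 h than at 6 h, and then 1.60-fold lower (1.48 to 1.73) at 24 h than at 12 h, a call that ended with TMM scaling, where the log2 ratio was -0.53. Over the whole interval from 6 to 24 h the difference was 2.19-fold (1.93 to 2.49). Nars and Rars carried much of the class sum: without these 2 genes, a choice made after their values were seen, the cytosolic sum was 1.08-fold lower (1.02 to 1.14) at 12 h and 1.27-fold lower (1.20 to 1.34) at 24 h than at 6 h.

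The threonyl enzymes came next. Tars, the main cytosolic threonyl synthetase, had 2 counts at 0 h and, in the treated libraries in time order, 191 CPM (162 to 225), 164 CPM (153 to 175) and 116 CPM (108 to 125). Its intervals at 6 and 12 h overlapped, and the one at 24 h lay below both, which made it 1.64-fold lower (1.37 to 1.96) at 24 h than at 6 h. Tarsl2, a second cytosolic threonyl enzyme, had 29, 133 and 110 counts in the treated libraries, or 37.2, 23.4 and 17.8 CPM, and 2 counts at 0 h. It was 1.59-fold lower (1.03 to 2.39) at 12 h and 2.09-fold lower (1.34 to 3.17) at 24 h than at 6 h. Being under 20 CPM at 24 h, it was compared there only through its higher level at 6 h. Tarsl2 shares 120 exon bases with Tm2d3 on the same strand in the GENCODE vM21 annotation, and Tm2d3 itself was 1.59-fold higher (0.953 to 2.83) at 24 h than at 6 h, with an interval that includes 1.

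Cars, Lars, Iars and Sars were called lower at 24 h against 6 h and in no other comparison. Lars, the leucyl enzyme of the complex, had 7 counts at 0 h and 218, 169 and 142 CPM at 6, 12 and 24 h, which is 1.54-fold lower (1.30 to 1.82) at 24 h than at 6 h. Iars, the isoleucyl enzyme of the complex, had 3 counts at 0 h and 77.0, 57.7 and 50.8 CPM, 1.52-fold lower (1.13 to 2.01). Both have their highest treated value at 6 h, but when every barcode was given equal weight in place of every count, the log2 ratio at 24 h against 6 h was 0.20 for Lars and 0.06 for Iars, the opposite direction. Sars, the seryl enzyme, had 4 counts at 0 h and 203, 172 and 134 CPM, 1.51-fold lower (1.26 to 1.79). Cars, the cysteinyl enzyme, had 1 count at 0 h and 43.7, 39.0 and 27.4 CPM, 1.59-fold lower (1.07 to 2.31). Lars, Iars and Sars lie close to the limit of 1.5-fold, and in barcodes with 1000 or more counts Sars was 1.43-fold lower (1.16 to 1.74) and no longer called.

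Farsa, which encodes the catalytic subunit of the phenylalanyl enzyme, went the other way at 12 h. It had 8 counts at 0 h, or 74.9 CPM (32.3 to 148), and then 24.4 CPM (14.7 to 38.1), 40.3 CPM (35.2 to 45.8) and 28.5 CPM (24.5 to 33.1). It was 1.65-fold higher (1.03 to 2.79) at 12 h than at 6 h and 1.17-fold higher (0.727 to 1.99) at 24 h than at 6 h, where the interval includes 1. The call at 12 h ended with TMM scaling, at a log2 ratio of 0.56, and in barcodes with 1000 or more counts, at 0.53. In those of them without a cycling-marker count the ratio was 0.893 (0.371 to 2.81), below 1. Its partner subunit Farsb was not called in any comparison. The other 10 cytosolic genes, Aars, Dars, Eprs, Farsb, Hars, Mars, Qars, Vars, Wars and Yars, had log2 ratios between -0.28 and 0.11 at 12 h against 6 h, between -0.58 and 0.20 at 24 h against 12 h, and between -0.49 and 0.11 at 24 h against 6 h. Among them Eprs, which joins both glutamate and proline to their tRNAs, had 406, 400 and 325 CPM, and Aars, the alanyl enzyme, 93.7, 98.8 and 100.2 CPM. Aars shares 1326 exon bases with Exosc6 on the same strand in the GENCODE vM21 annotation, so reads from that stretch may not be told apart.

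Of the promoter matches printed above, that of Tars begins 15 bases and that of Gars 30 bases before the start, whereas those of Aars, Iars and Yars begin 9, 7 and 3 bases after it. Aars holds a further match, TTGCATCA, not printed above, whose first base is at -112 relative to the start. The 5 genes with a match differed between libraries by unequal amounts. At 24 h against 6 h the log2 ratios were -0.71 for Tars and -0.59 for Iars, which were called lower, and -0.19 for Yars, -0.12 for Gars and 0.10 for Aars, which were not. The 250 bases before the start of Tars, the gene with a match that differed most, lie at chr15:11399659-11399908 on the minus strand, with the match in capitals near the end.
Tars promoter: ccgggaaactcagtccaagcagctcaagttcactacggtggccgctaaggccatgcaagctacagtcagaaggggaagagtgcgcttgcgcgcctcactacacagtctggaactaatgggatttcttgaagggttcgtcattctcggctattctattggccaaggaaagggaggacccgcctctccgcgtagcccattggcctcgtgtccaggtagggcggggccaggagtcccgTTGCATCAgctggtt
A match is a stretch of letters in this window and not a shown binding site.

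Both complex members and free enzymes had lower sums at each later time. The 7 genes of complex members that serve the cytosol alone (Dars, Eprs, Iars, Lars, Mars, Qars and Rars) summed to 1379, 1180 and 944 CPM and were 1.46-fold lower (1.37 to 1.56) at 24 h than at 6 h. The 12 cytosolic genes outside the complex summed to 1757, 1280 and 1110 CPM and were 1.58-fold lower (1.49 to 1.68). The intervals of the 2 ratios overlap. The scaffold genes Aimp1, Aimp2 and Eef1e1 had no call in any comparison, with log2 ratios of -0.40, 0.08 and -0.26 at 24 h against 6 h.

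**Figure D2:**
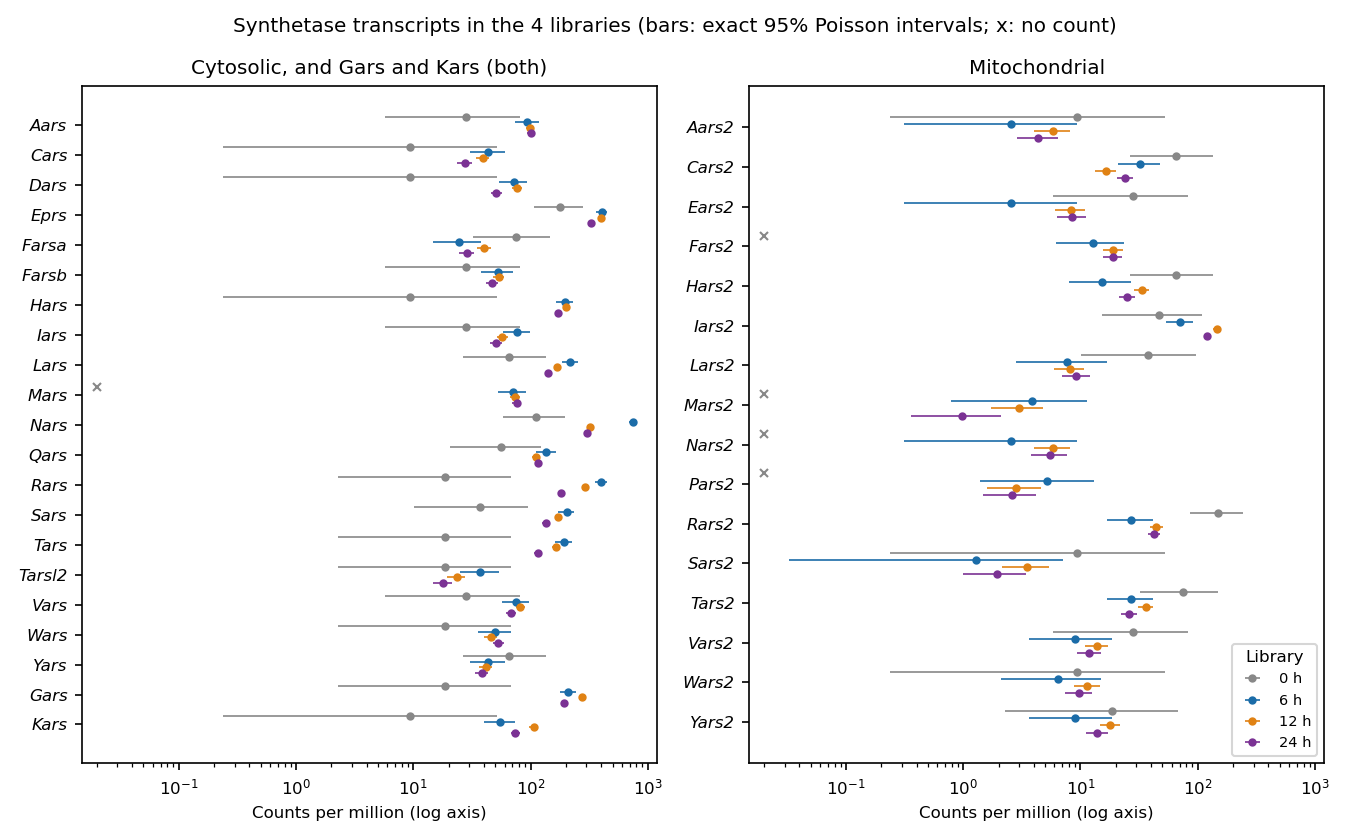
Level of 37 of the 38 genes in CPM on a log axis, with cytosolic genes and Gars and Kars on the left and mitochondrial genes on the right, and one colour per library. Points are levels, lines are exact 95% Poisson intervals and a cross marks a gene without a count, drawn at the left edge; Nars at 6 h, at 746 CPM, and Rars2 in the library labelled 0 h, at 150 CPM, stand to the right of their other libraries.

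The mitochondrial genes held few counts, and only some could be read singly. At 12 h against 6 h, 3 of the 5 that could be compared were higher (Hars2, Iars2 and Rars2) and 1 was lower (Cars2), with a median log2 ratio of 0.70. At 24 h against 6 h, 3 were higher (again Hars2, Iars2 and Rars2) and 0 lower, with a median of 0.63, and at 24 h against 12 h none was called in either direction, with a median of -0.26. Hars2 at 6 h, at 15.4 CPM, and Cars2 at 12 h, at 16.4 CPM, were under 20 CPM. In comparisons with those libraries they reached the mean only through the library where they were higher, so their calls depend partly on the floor. The same call rule gave the background shares stated above, and at 12 h against 6 h the share of higher genes was itself larger, 28.4%, among genes with a mean of 20 to 50 CPM, where 4 of these 5 genes lie. With 5 genes, these counts say little about the class beyond the genes named.

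Iars2, the mitochondrial isoleucyl enzyme, at chr1:185284726-185329396 on the minus strand in mm10, held the most counts of the class. It had 5 counts at 0 h and 55, 824 and 745 counts, or 70.6 CPM (53.2 to 91.9), 145 CPM (135 to 155) and 121 CPM (112 to 130), at 6, 12 and 24 h. The 6 h library was below both later ones: Iars2 was 2.05-fold higher (1.56 to 2.75) at 12 h and 1.71-fold higher (1.30 to 2.29) at 24 h. Without Iars2 the mitochondrial sum was still 1.39-fold higher (1.17 to 1.68) at 12 h and 1.25-fold higher (1.05 to 1.51) at 24 h than at 6 h. Iars2 shares 2034 exon bases with Rab3gap2 on the opposite strand, and nothing in the labels says whether counting used strand, so reads of these 2 genes may not be told apart. Rab3gap2 had 28.2, 34.1 and 21.9 CPM in the treated libraries.

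Rars2, the mitochondrial arginyl enzyme, had treated levels of 27.0 CPM (16.7 to 41.2), 44.3 CPM (39.0 to 50.1) and 42.3 CPM (37.3 to 47.8) in time order. It was 1.64-fold higher (1.05 to 2.70) at 12 h and 1.57-fold higher (1.01 to 2.58) at 24 h than at 6 h, with intervals that barely leave 1, and with TMM scaling the log2 ratio at 12 h, 0.56, was not called. In the library labelled 0 h Rars2 had 16 counts, 150 CPM (85.6 to 243), above all treated libraries. Hars2, the mitochondrial histidyl enzyme, had 7 counts at 0 h, or 65.5 CPM (26.3 to 135). In the treated libraries it had 12, 189 and 155 counts, or 15.4, 33.2 and 25.1 CPM. It was 2.16-fold higher (1.21 to 4.25) at 12 h than at 6 h, and 1.63-fold higher (0.908 to 3.23) at 24 h, where the interval includes 1. In barcodes with 1000 or more counts it was 1.48-fold higher (0.782 to 3.14) at 24 h, which ended that call and left 2 mitochondrial genes higher. Hars2 and Hars share 195 exon bases on opposite strands.

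Cars2, the mitochondrial cysteinyl enzyme, had its lowest level at 12 h. It had 7 counts at 0 h, or 65.5 CPM (26.3 to 135), followed by 32.1 CPM (20.8 to 47.4), 16.4 CPM (13.2 to 20.03) and 24.0 CPM (20.3 to 28.2). It was 1.96-fold lower (1.21 to 3.08) at 12 h than at 6 h and 1.47-fold higher (1.13 to 1.92) at 24 h than at 12 h. In deeper barcodes without a cycling-marker count the ratio at 12 h against 6 h was 1.02 (0.269 to 8.69), and with equal weight for every barcode its log2 ratio was -0.35, so the call at 12 h ended in both. Cars2 shares 422 exon bases with Naxd on the opposite strand. Tars2, the mitochondrial threonyl enzyme and the remaining gene above the level, had 27.0, 35.9 and 25.9 CPM, and none of its ratios reached 1.5-fold.

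The other 12 mitochondrial genes had 1 to 10 counts each at 6 h, which is 1.28 to 12.8 CPM, 2.81 to 19.0 CPM at 12 h and 0.973 to 19.0 CPM at 24 h. Of these, Ears2, Mars2, Nars2 and Pars2 had the largest log2 ratios at 24 h against 6 h, 1.40, -1.30, 0.87 and -0.77. Ears2, the glutamyl enzyme, had 3 counts at 0 h, or 28.1 CPM (5.79 to 82.1). In the treated libraries it had 2, 47 and 52 counts, or 2.57, 8.26 and 8.43 CPM. Its ratio was 3.28 (0.864 to 27.8) at 24 h against 6 h. Mars2, the methionyl enzyme, had no count at 0 h and 3, 17 and 6 counts. Nars2, the asparaginyl enzyme, likewise had 0 counts there and then 2, 33 and 34. Pars2, the prolyl enzyme, had 0, 4, 16 and 16 counts. The ratios at 24 h against 6 h were 0.253 (0.0539 to 1.56) for Mars2, 2.15 (0.55 to 18.4) for Nars2 and 0.505 (0.163 to 2.08) for Pars2. All 4 of these intervals include 1, so a difference was not detectable at this depth. With no floor on the level, 14 of 17 mitochondrial genes were above 0 on the log2 scale at 12 h against 6 h, 4 of 17 at 24 h against 12 h and 13 of 17 at 24 h against 6 h. For the cytosolic genes these counts were 7, 4 and 4 of 19. Among all genes at 20 CPM or more, 64.2%, 32.3% and 53.7% were above 0. Among genes with a mean of 5 to 20 CPM, 66.2%, 36.2% and 59.5% were above 0 in the same order.

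Kars was called in 1 comparison and Gars in none. Kars, the lysyl enzyme and also a member of the complex, at chr8:111993443-112011323 on the minus strand, had 1 count at 0 h and 55.2 CPM (40.0 to 74.4), 106 CPM (97.7 to 115) and 74.3 CPM (67.6 to 81.4) at 6, 12 and 24 h. It was 1.92-fold higher (1.41 to 2.68) at 12 h than at 6 h and 1.43-fold lower (1.26 to 1.62) at 24 h than at 12 h. In deeper barcodes without a cycling-marker count the ratio at 12 h against 6 h was 1.84 (0.884 to 4.62), with an interval that includes 1. Gars had 2 counts at 0 h and 209 CPM (178 to 244), 273 CPM (259 to 287) and 192 CPM (182 to 204). Both thus had their highest treated level at 12 h, unlike the cytosolic sum.

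**Figure D3:**
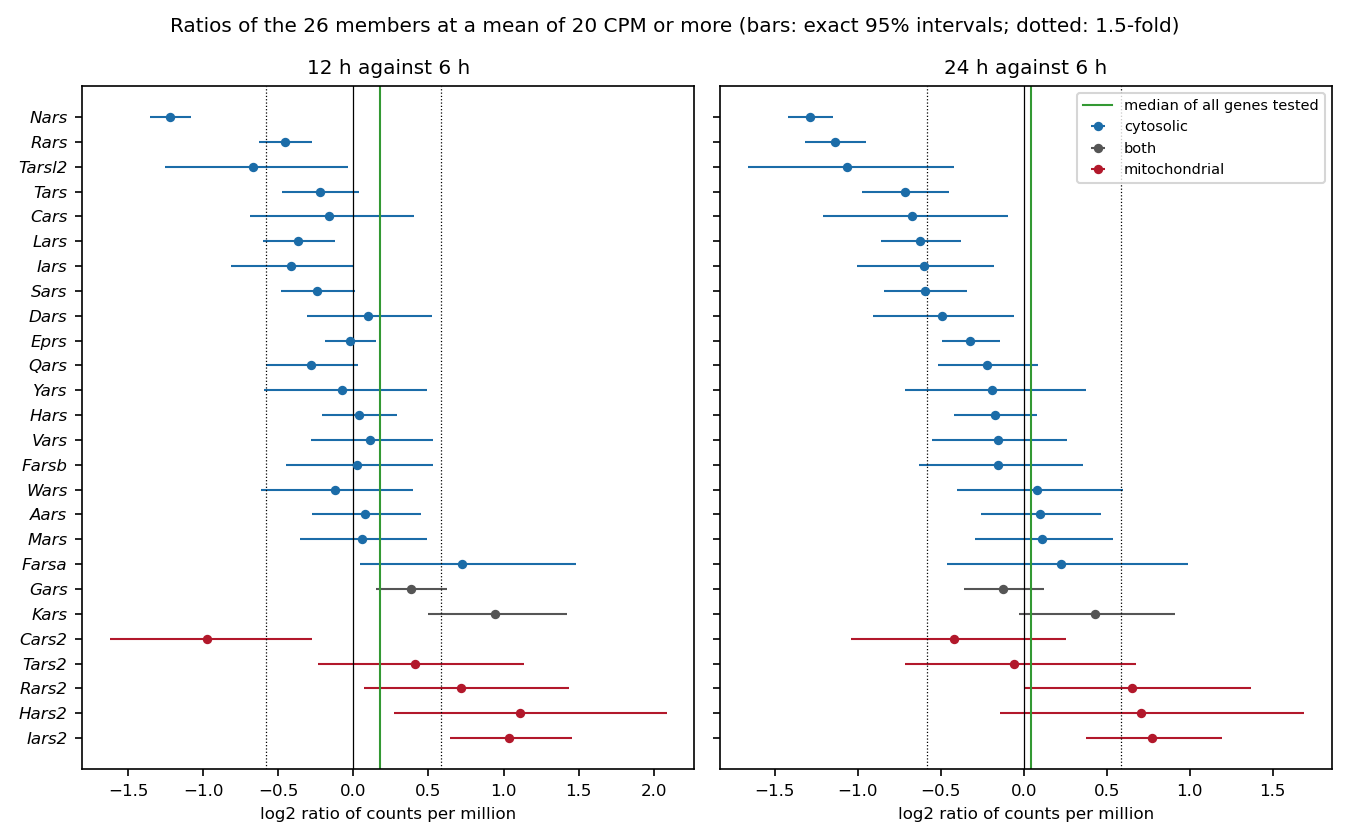
Log2 ratio of CPM for the 26 genes with a mean of 20 CPM or more, at 12 h against 6 h (left) and 24 h against 6 h (right). Points are ratios, lines exact 95% intervals, dotted lines 1.5-fold and the green line the median of all genes compared. Nars has the lowest ratio in both panels, and Hars2 and Iars2 have the highest ratios at 12 h against 6 h.

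For 17 amino acids the mitochondrial enzyme could be set beside its cytosolic partner, with Farsa and Farsb summed for phenylalanine and Eprs used for both glutamate and proline. The mitochondrial share of a pair's counts was higher at 12 h than at 6 h in 14 of 17 pairs, higher at 24 h than at 12 h in 10 and higher at 24 h than at 6 h in 15. Most pairs set a low gene beside a higher one. Over all genes with a mean of 5 to 20 CPM, the median log2 ratios were 0.29, -0.13 and 0.19 in the same order. Over those with a mean of 200 to 1000 CPM they were 0.05, -0.09 and -0.03. The part of level in the pair counts was not tested. For most pairs the intervals overlapped. For isoleucine the interval at 6 h lay below the later ones: Iars2 made up 47.8% (38.4 to 57.3) of the pair at 6 h, 71.5% (68.8 to 74.1) at 12 h and 70.4% (67.6 to 73.2) at 24 h. For arginine the share of Rars2 was 6.33% (3.96 to 9.51), 13.2% (11.7 to 14.8) and 18.9% (16.8 to 21.0), so that each later library lay above the one before. For cysteine the share of Cars2 was 42.4% (29.6 to 55.9), 29.5% (24.5 to 34.9) and 46.7% (41.1 to 52.3), with 12 h and 24 h apart. Mars2 and Pars2 were the 2 pairs with a lower share at 24 h than at 6 h. A pair's share compares libraries and not the amounts of the 2 enzymes, since the genes differ in how well they are captured.

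**Figure D4:**
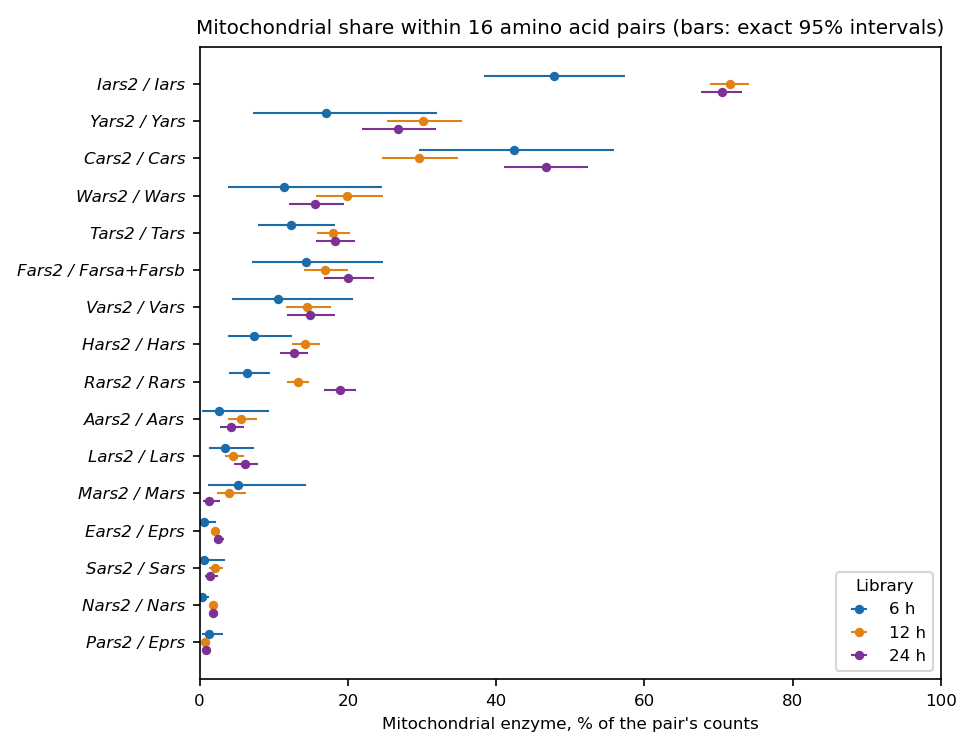
Mitochondrial enzyme as a percentage of the counts of its amino acid pair, for 16 of the 17 pairs at 6, 12 and 24 h. Points are shares and lines exact 95% binomial intervals; the isoleucine pair goes from 47.8% at 6 h to 71.5% at 12 h, while most other pairs have intervals that overlap between libraries.

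Depth and dividing cells moved with time as well. Barcodes with 1000 or more counts numbered 80, 865 and 933 at 6, 12 and 24 h and held 74.1%, 97.8% and 97.6% of the counts. The 10 cycling markers summed, in the same order, to 1465 CPM (1381 to 1553), 421 CPM (404 to 438) and 74.0 CPM (67.3 to 81.1), with none of the 10 at 0 in a treated library. Within the deeper barcodes the cytosolic sum was 1.34-fold lower (1.28 to 1.41) at 12 h and 1.60-fold lower (1.53 to 1.68) at 24 h than at 6 h, and the mitochondrial sum was 1.41-fold higher (1.20 to 1.67) and 1.24-fold higher (1.05 to 1.47). Restricted further to deeper barcodes without a cycling-marker count, 32 at 6 h, the cytosolic sum was 1.29-fold lower (1.16 to 1.44) and 1.48-fold lower (1.33 to 1.64). There the mitochondrial sum was 1.32-fold higher (0.951 to 1.90) at 12 h and 1.14-fold higher (0.816 to 1.63) at 24 h, and both intervals include 1.

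In those 32 barcodes and their counterparts, Nars was 2.30-fold lower (1.82 to 2.88) at 12 h and 2.28-fold lower (1.81 to 2.85) at 24 h, and Rars 1.83-fold lower (1.39 to 2.38) and 2.71-fold lower (2.05 to 3.52). Rars at 24 h against 12 h was 1.48-fold lower (1.34 to 1.63) in them, under the limit of 1.5-fold. Of the other genes called at 24 h against 6 h, Lars was 1.60-fold lower (1.06 to 2.34) and Sars 1.61-fold lower (1.05 to 2.37) there. For the rest the intervals include 1: Tars was 1.55-fold lower (0.964 to 2.38), Tarsl2 2.46-fold lower (0.774 to 6.02), Cars 1.24-fold lower (0.332 to 3.27) and Iars 1.12-fold lower (0.445 to 2.35). Iars2 was 1.45-fold higher (0.782 to 3.04), Hars2 1.64-fold higher (0.444 to 13.7) and Rars2 1.72-fold higher (0.580 to 8.44), again with intervals that include 1. Few barcodes were left at 6 h, and the part of dividing cells in these differences was not tested. At 6 h the mitochondrial sum itself differed with depth: it was 154 CPM (105 to 218) in barcodes under 1000 counts and 270 CPM (229 to 316) in the deeper ones. The cytosolic sum at 6 h was 2656 CPM and 3303 CPM in the same classes. In the deeper barcodes the median cytosolic count per 10000 counts was 28.7, 23.6 and 20.03 in time order, and the mitochondrial one 1.88, 3.43 and 2.86. At 6 h 1 barcode held 159 of the cytosolic counts of the deeper barcodes, 8.34%. The share of barcodes with any mitochondrial synthetase count was 60%, 76.2% and 75.03%, but this share moves with depth and is not read as expression.

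The genes around the synthetases were described from lists of their pathway. Of the 24 listed genes of ATF4 and amino acid synthesis, 14 could be compared at 24 h against 6 h: 7 were lower and 1 higher, where 11.8% of all genes were lower and 17.4% higher. Their median log2 ratio was -0.70, against 0.04 for all genes. At 12 h against 6 h 7 of 14 were lower and 2 higher, where 8.94% of all genes were lower and 22.5% higher, with a median of -0.59 against 0.18. Psat1, an enzyme of serine synthesis, had 77.0, 28.3 and 12.0 CPM at 6, 12 and 24 h and was 6.42-fold lower (4.49 to 9.15) at 24 h than at 6 h. Psph, which makes the last step to serine, had 123, 31.5 and 29.4 CPM and was 4.20-fold lower (3.24 to 5.41). Atf5, a transcription factor related to ATF4, had 41.1, 17.8 and 12.3 CPM and was 3.33-fold lower (2.13 to 5.10). The 1 gene higher, Nupr1, a stress-induced nuclear protein, had 289, 1336 and 2179 CPM. Asns, asparagine synthetase, was chosen after its values were seen because it makes the amino acid that Nars uses: it had 113, 49.2 and 35.5 CPM and was 3.18-fold lower (2.46 to 4.09) at 24 h than at 6 h. Atf4 itself had 123, 110 and 111 CPM.

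The other lists of translation are read against the same shares of all genes, 17.4% higher and 11.8% lower at 24 h against 6 h, and 22.5% and 8.94% at 12 h against 6 h. Of 5 cytosolic elongation factors none was called at 24 h against 6 h, and Eef2, which moves the ribosome along, was higher at 12 h against 6 h, with 1280, 1933 and 1881 CPM. Of 7 mitochondrial translation factors compared at 24 h against 6 h, 1 was higher and 0 lower, with a median of 0.31. The one called, Tufm, the mitochondrial elongation factor that delivers charged tRNAs, had 15.4, 34.6 and 28.1 CPM, 1.82-fold higher (1.02 to 3.59) at 24 h than at 6 h. The 74 mitochondrial ribosomal protein genes compared gave 1 higher and 6 lower, with a median of -0.05, close to that of all genes, 0.04. At 12 h against 6 h 73 genes of this list could be compared and gave 4 higher and 8 lower, with a median of 0.0033 against 0.18. Of 4 amino acid transporters, Slc3a2 was lower, at 66.8, 53.6 and 37.0 CPM. Of 6 genes of tRNA editing and related steps, Dtd1, which removes D-amino acids from tRNAs, was higher, at 36.0, 56.4 and 60.5 CPM. Of the amidotransferase genes, 3 of the 4 names were in the table and 1, Gatc, could be compared, with a log2 ratio of -0.24.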

How the data were processed

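The authors deposited 1 table of counts, in whole numbers without normalization, with genes in rows and barcodes in columns. The barcode names in the file give the library, and no per-sample column was left unmatched (0). STAR 2.5.3a and the build mm10 are named for the alignment, per the submitters' processing notes. Not given in the sources used here: the counter, annotation, barcode filter, strand setting and collapsing of molecular identifiers.

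All deposited barcodes were kept. No doublet caller was run and no doublets were removed. Counts were summed per library and divided by the library total to give CPM. A pseudocount of 1 CPM was added before log2 ratios were taken, which makes differences of low genes smaller, for genes with a mean of 20 CPM or more, and a gene was called at 1.5-fold. Ratios with intervals have no pseudocount. Intervals at 95% are exact Poisson for levels, binomial for shares and conditional binomial for ratios (scipy 1.17.1). The procedure was checked on simulated data, in which the changed genes were drawn from well above the floor so that the floor itself removed none. Genes just above the floor were not changed in that check.

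Values are given for members called between treated libraries and for the 6 cytosolic and 4 mitochondrial members with the largest log2 ratio at 24 h against 6 h, and of related lists for up to 4 members. One mitochondrial member is not reported here singly, though it is counted in the sums. The members and lists were chosen with earlier results of these data known. Positions and exon overlaps are from GENCODE vM21 and promoter windows from RefSeq. Alternatives used TMM (edgeR 4.0.16), DESeq2 1.42.0 size factors, other floors, pseudocounts and totals, deeper barcodes and equal weight per barcode.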

Additional observations from a re-analysis of the deposited data

How the results depend on the processing

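No paired analysis was possible because each time point is 1 library, and for the same reason no replicate could be left out. The direction of both class sums was kept under each alternative run, and of 432 alternative values of named members 5 were reversed, as given below, besides sign changes of ratios whose own counting interval includes no difference. With TMM scaling the cytosolic sum was 0.711 times its 6 h value at 12 h, and at 24 h 0.924 times its 12 h value, the mitochondrial sum 0.967 times its 12 h value. The medians were -0.26 (cytosolic, 12 h against 6 h), -0.11 (cytosolic, 24 h against 12 h) and -0.12 (mitochondrial, 24 h against 12 h). At 12 h against 6 h 0 cytosolic genes were higher, and at 24 h against 12 h 0 cytosolic were lower and 1 mitochondrial higher. With DESeq2 size factors these sums were 0.696, 0.914 and 0.957 times, the cytosolic medians -0.29 and -0.10, and the cytosolic counts 0 and 0. Totals without mitochondrial-genome and ribosomal protein genes gave cytosolic sums of 0.737 and 0.872 times and medians of -0.21 and -0.19 in these 2 comparisons, a mitochondrial median of -0.10 and 1 mitochondrial gene higher at 24 h against 12 h.

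With equal weight per barcode the cytosolic sum was 0.907 (12 h against 6 h), 0.797 (24 h against 12 h) and 0.723 times (24 h against 6 h), and the mitochondrial sum 2.29 times (12 h against 6 h) and 1.95 times (24 h against 6 h). The cytosolic median was reversed to 0.047 at 12 h against 6 h and was -0.38 at 24 h against 12 h, and the mitochondrial medians were 1.32, -0.41 and 0.97. Cytosolic genes higher numbered 5 at 12 h and 2 at 24 h against 6 h, and 4 were lower at 24 h against 12 h; mitochondrial genes lower numbered 0 at 12 h against 6 h and 1 at 24 h against 12 h, and the share at 6 h was 5.61%. Reversed log2 ratios were 0.47 and 0.20 for Lars (12 h and 24 h against 6 h), 0.061 for Iars (24 h against 6 h), and 0.19 for Mars2 and 0.024 for Tarsl2 (24 h against 12 h). This weighting lets shallow barcodes count as much as deep ones, and the cause was not tested.

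In barcodes with 1000 or more counts the cytosolic sums were 0.745 and 0.624 times the 6 h value, the cytosolic median -0.46 at 24 h against 6 h, cytosolic genes higher at 12 h 0, mitochondrial genes lower at 24 h against 6 h 1, and the share at 0 h 54.2%. Barcodes with 500 or more genes gave 0.744 and 0.622 times, -0.47, 0 and 1, with 4 cytosolic genes lower at 12 h, 1 mitochondrial gene higher at 24 h against 6 h and 53.6%. In deeper barcodes with no cycling marker, added after seeing the data, the cytosolic sum at 24 h was 0.874 times that at 12 h, the mitochondrial sums 1.32 and 1.14 times the 6 h value, and the shares 52.4%, 8.85% and 14.3% at 0, 6 and 12 h. Also added then, without Nars and Rars the cytosolic sums were 0.929 and 0.787 times the 6 h value, and leaving out Iars2 is given above.

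A 2-fold limit left 0 cytosolic genes higher and 1 lower at 12 h against 6 h, 0 lower at 24 h against 12 h and 3 lower at 24 h against 6 h, with 0 mitochondrial lower at 12 h and 0 higher at 24 h against 6 h. A pseudocount of 10 CPM gave 0 cytosolic higher and 1 lower at 12 h, 5 lower at 24 h and 1 mitochondrial higher at 24 h, all against 6 h. A floor of 50 CPM left 0 and 1 cytosolic genes at 12 h against 6 h, mitochondrial counts of 1 higher and 0 lower at 12 h and 1 higher at 24 h against 6 h, and medians of -0.40 (cytosolic, 24 h against 6 h) and 1.03 (mitochondrial, 12 h against 6 h). With no floor 9 mitochondrial genes were higher and 2 lower at 12 h against 6 h, 2 lower at 24 h against 12 h, and 6 higher and 2 lower at 24 h against 6 h. Counting Gars and Kars as mitochondrial gave sums of 0.789 (24 h against 12 h) and 1.19 times (24 h against 6 h), a median of -0.39 at 24 h against 12 h, and shares of 13.9%, 23.6% and 22.6% at 6, 12 and 24 h. Depth limits the library labelled 0 h to class sums, and at 6 h it leaves 12 mitochondrial genes with 10 counts or fewer.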
